A study of Rattus norvegicus with 12 samples.

Results

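The Homer scaffold genes and the metabotropic glutamate receptor (Grm) genes were examined in the CA1 region of the rat hippocampus after a spatial learning session or a control task. All probe sets whose only annotated gene symbol was Homer1, Homer2, Homer3, Grm2, Grm3, Grm4, Grm5, Grm7 or Grm8 were taken, which gave 15 probe sets for these 9 genes, out of 15923 probe sets and 10411 named genes on the array. Homer1 had 5 probe sets, Grm8 had 3 and the other 7 genes had 1 each. RNA came from 12 young male Long-Evans rats, 3 to 4 months old, 1 Affymetrix RAE230A array per rat. Every rat had earlier learned a standard water maze, and 2 to 3 weeks later swam 8 trials, 8 minutes apart, in a maze at another site. For the 6 rats of the spatial learning group the visible platform kept its place and spatial cues were in view. For the 6 rats of the control task group the visible platform changed place between trials and no cue told its position. All rats were given a 90-second probe trial, with the platform removed, 1 hour after training, and were killed directly afterwards. No group was left unhandled or untrained, so both groups carry the effects of swimming, handling and the probe trial.

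Metabotropic glutamate receptors are G protein-coupled receptors that respond to synaptic glutamate. Group I receptors such as Grm5 act through Gq proteins and phospholipase C at the postsynaptic side. Group II (Grm2 and Grm3) and group III (Grm4, Grm6, Grm7 and Grm8) inhibit adenylyl cyclase, many of them at presynaptic terminals. Homer proteins bind the tails of group I receptors, as well as Shank scaffolds and inositol trisphosphate receptors, and link them below the synapse. Homer1 gives long forms that assemble through a coiled coil, and a short form, Homer1a, which is induced by neuronal activity, lacks the coiled coil and competes with the long forms. Which form each Homer1 probe set reads is not stated in the labels or the annotation. Probe sets 1368318_at and 1368319_a_at were annotated to the same sequence record and the other 3 to a record each, and "_a_" marks sets that the manufacturer expected to read several transcripts of a gene.

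Values are log2 probe set levels, and a level of at least 4 on average over the 12 arrays was required for testing, which 9610 of 15866 non-control probe sets met. Arrays correlated with one another at 0.996 to 0.998 over all probe sets, and their number, 6 per group, limits the precision. All 7 CA1 marker genes with a probe set, Wfs1 and Fibcd1 among them, lay above that level. So did all 3 of the CA3 field, all those of astrocytes and oligodendrocytes, 8 of 10 microglial and 9 of 10 interneuron markers. Fewer did among dentate gyrus (4 of 8), choroid plexus (3 of 7) and meningeal markers (6 of 10), and the list means below include the dim ones. In bulk tissue, fewer cells of a type and less RNA per cell cannot be told apart. Per-array means of the marker lists differed between the groups by 0.19 for CA1 markers, -0.12 for dentate gyrus markers, -0.11 for astrocyte markers, -0.14 for microglial markers, -0.12 for meningeal markers and -0.54 for choroid plexus markers (log2, spatial learning minus control task). The differences were smaller for CA3 (0.036), oligodendrocyte (-0.044) and interneuron markers (0.015). The 3 CA3 markers went both ways, so their mean does not show matched CA3 content. Bok differed by 0.37, with all 6 spatial learning arrays above every control, Grik4 by 0.075 and Nnat by -0.34 (limma adjusted p = 0.216, 0.544 and 0.429). The choroid plexus mean spanned 4.27 to 6.02 among controls and 4.14 to 4.31 after spatial learning, and Ttr, its defining transcript, was lower in all 6 spatial learning arrays than in every control (difference -3.33, limma adjusted p = 0.423). The other tested markers of this list went both ways, Enpp2 by -0.41 and Kcne2 by 0.18 (limma adjusted p = 0.538 and 0.458). The choroid plexus mean was highest in control task replicate 3, and the meningeal mean in control task replicate 6 and spatial learning replicate 6.

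Of the 15 probe sets, 8 were bright enough to be tested, and they cover Homer1 (5 probe sets), Grm3, Grm7 and Grm8 (1 probe set). The other 7, which are those of Homer2, Homer3, Grm2, Grm4 and Grm5 and the remaining 2 of Grm8, lay between 2.36 and 3.61 in every array. Over the whole array, 39.4% of the non-control probe sets fell below the same level. Levels of different probe sets depend on their probes and are not set against one another.

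**Figure D1:**
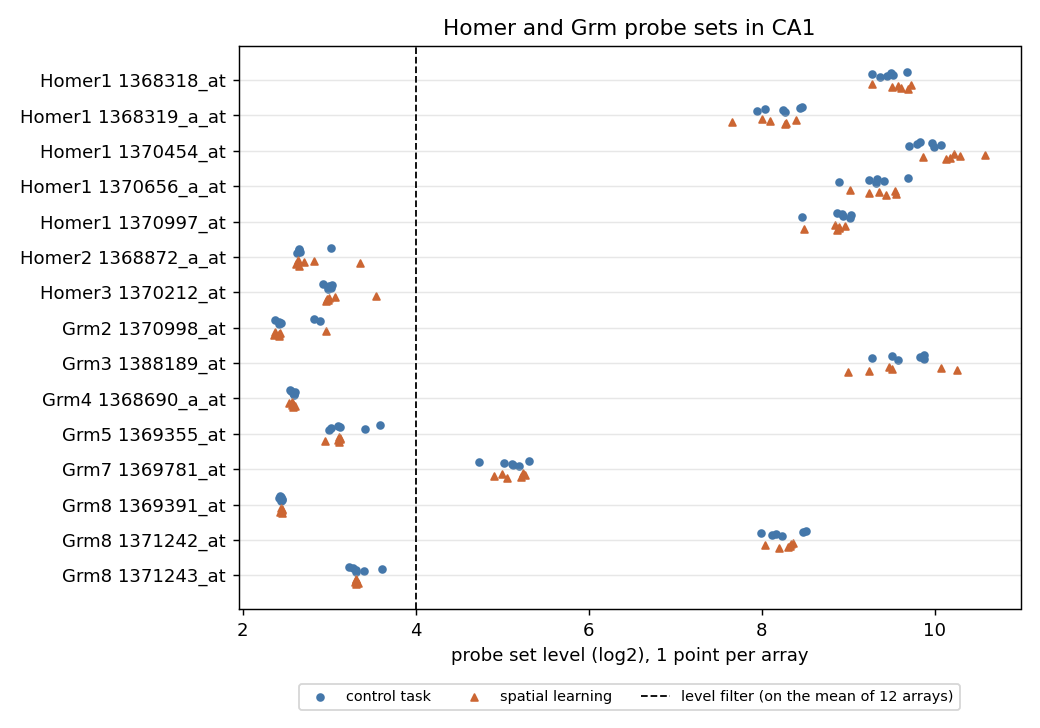
Level (log2) of each of the 15 Homer and Grm probe sets in the 12 arrays, 1 point per array, circles for the control task and triangles for spatial learning, with the level filter of 4 as a dashed line. The 5 Homer1 probe sets, Grm3, Grm7 and Grm8 1371242_at lie to the right of the line and the other 7 between 2.36 and 3.61.

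No Homer or Grm probe set passed the test between the groups, and the one furthest from 0 was a Homer1 probe set that was higher after spatial learning. With limma's moderated test and Benjamini-Hochberg adjustment over all 9610 probe sets, 0 of the 8 passed at an adjusted p of 0.05, as did 0% of all tested probe sets. Of the 8, 1 had an unadjusted p under 0.05, and it lay on the higher side, where 10.9% of all tested probe sets had such a p and 6.36% had it on the higher side. The 8 split into 5 above and 3 below 0, with a median difference of 0.02 (log2) against 0.0079 over all tested probe sets. The median size of the difference, regardless of sign, was 0.058 for the 8 and 0.061 for all. The members' share and sizes are thus close to those of the array as a whole.

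**Figure D2:**
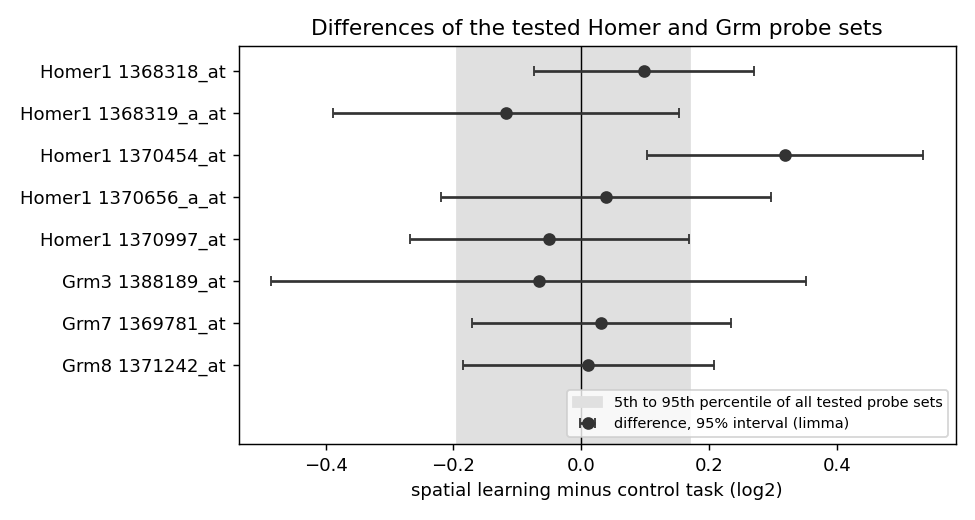
Difference between the groups (spatial learning minus control task, log2) of the 8 tested Homer and Grm probe sets, with limma's 95% interval, n = 6 arrays per group. The grey band spans the 5th to 95th percentile of all tested probe sets, -0.20 to 0.17, and only the point of Homer1 1370454_at, at 0.32, lies outside it.

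Homer1 1370454_at was the probe set of the family with the widest gap between the groups. Control replicates 1 to 6 read 9.99, 9.70, 10.08, 9.79, 9.97 and 9.83. Spatial learning replicates 1 to 6 read 10.13, 10.18, 9.87, 10.30, 10.58 and 10.22. The groups overlapped through spatial learning replicate 3 alone, and the other 5 spatial learning arrays lay above every control, which 2.16% of all tested probe sets showed. The means were 9.89 ± 0.14 and 10.21 ± 0.23 (SD, n = 6 each), a difference of 0.32 (SE 0.10, 95% interval 0.10 to 0.54) or a ratio of 1.25 (1.07 to 1.45). This difference had a limma p of 0.00714 before adjustment and 0.388 after it, and ranked at position 170 of 9610 by p. An exact permutation test over the 924 ways to choose 6 of 12 arrays, 2-sided, gave p = 0.0173 before adjustment and 0.412 after it. The difference therefore did not pass, and it was already known from earlier results of these data.

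The other 4 Homer1 probe sets had intervals that span 0. For 1368318_at, the control arrays read 9.37, 9.45, 9.52, 9.28, 9.50 and 9.68 and the spatial learning arrays 9.69, 9.61, 9.51, 9.58, 9.72 and 9.28. Its difference was 0.10 (SE 0.08, 95% interval -0.07 to 0.27, limma adjusted p = 0.686), and the groups overlapped, with spatial learning replicate 6 as low as the lowest control. Probe set 1368319_a_at read 8.27, 7.94, 8.25, 8.03, 8.44 and 8.47 against 8.27, 8.28, 7.65, 8.10, 8.39 and 8.00, a difference of -0.12 (SE 0.13, 95% interval -0.39 to 0.15, limma adjusted p = 0.768). Its lowest array was spatial learning replicate 3, the array that was also lowest of its group on 1370454_at. Probe set 1370656_a_at spanned 8.90 to 9.70 among controls and 9.02 to 9.55 after spatial learning, a difference of 0.039 (95% interval -0.22 to 0.30, limma adjusted p = 0.928). Probe set 1370997_at spanned 8.47 to 9.03 and 8.49 to 8.97, a difference of -0.050 (95% interval -0.27 to 0.17, limma adjusted p = 0.888). In both groups its replicate 2 stood apart at the low end, at 8.47 and 8.49. The mean of these 4 probe sets averaged 8.97 ± 0.17 among controls and 8.97 ± 0.14 after spatial learning (SD, n = 6 each).

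**Figure D3:**
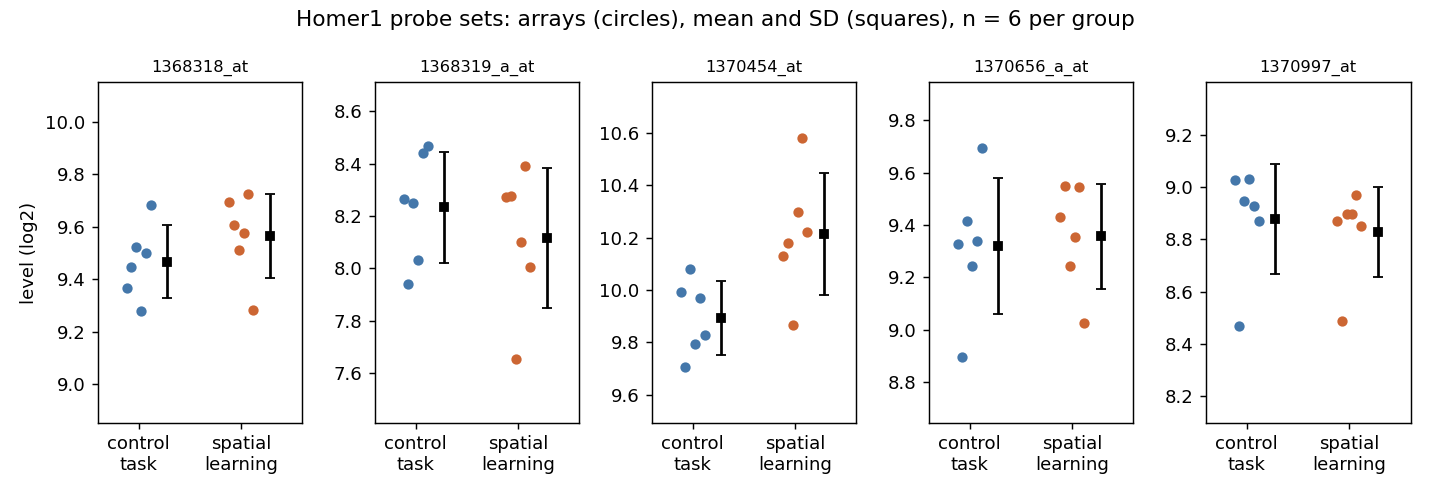
Levels (log2) of the 5 Homer1 probe sets by group, 1 circle per array, with mean and SD as squares and bars, n = 6 per group, each panel spanning the same range on its own part of the scale. Only in the panel of 1370454_at do 5 of the 6 spatial learning arrays lie above all controls.

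Whether Homer1 probe sets moved differently was tested on the log2 difference of 2 probe sets within each array, for all 10 pairs of the 5. In 1 of the 10 pairs the groups differed past the threshold. Probe set 1370454_at stood above 1368319_a_at by 1.73, 1.76, 1.83, 1.76, 1.53 and 1.36 in the control arrays. In the spatial learning arrays it stood above it by 1.86, 1.90, 2.21, 2.20, 2.19 and 2.22. The groups did not overlap, and the gap was wider after spatial learning by 0.44 (means 1.66 ± 0.18 and 2.10 ± 0.17, SD, n = 6 each). An exact permutation p of 0.00216, the minimum for 6 against 6 arrays, became 0.0216 when adjusted over the 10 pairs. The pair includes 1370454_at, whose difference was already known, so it gives no separate support for that difference. Members were chosen with earlier results of these data known, and adjustment over 10 pairs does not cover that choice. Pairs of probe sets of other genes were not tested, so how often such gaps separate the groups over the array is not known. This call was lost without control task replicate 5 or without control task replicate 6, with gaps of 0.41 and 0.38, both at an adjusted exact permutation p of 0.0649. Without the 3 arrays highest in choroid plexus or meningeal transcripts the gap was 0.38 (exact permutation p = 0.0238, adjusted 0.179), but with the 4 and 5 arrays left the smallest exact p, 0.00794, is 0.0794 over 10 pairs, so a lone pair could not have passed.

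Against the remaining 3 probe sets, the gaps of 1370454_at were also wider after spatial learning, but none passed. The gap was wider by 0.37 against 1370997_at (adjusted exact permutation p = 0.0866, 5 of 6 arrays above all controls). It was wider by 0.28 against 1370656_a_at (adjusted exact permutation p = 0.179) and by 0.22 against 1368318_at (adjusted exact permutation p = 0.199). Without the 3 arrays highest in choroid plexus or meningeal transcripts, these 3 gaps were wider by 0.39, 0.12 and 0.12. Their adjusted exact permutation p were then 0.179, 0.431 and 0.446. Leaving out control task replicate 2 brought the number of pairs that passed from 1 to 4, and leaving out spatial learning replicate 3 brought it to 2. The 2 probe sets annotated to the same record, 1368318_at and 1368319_a_at, differed from each other in response by 0.22 (adjusted exact permutation p = 0.179). A change of a within-array gap shows unequal readings of probe sets of Homer1, and not which of its transcripts differed.

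**Figure D4:**
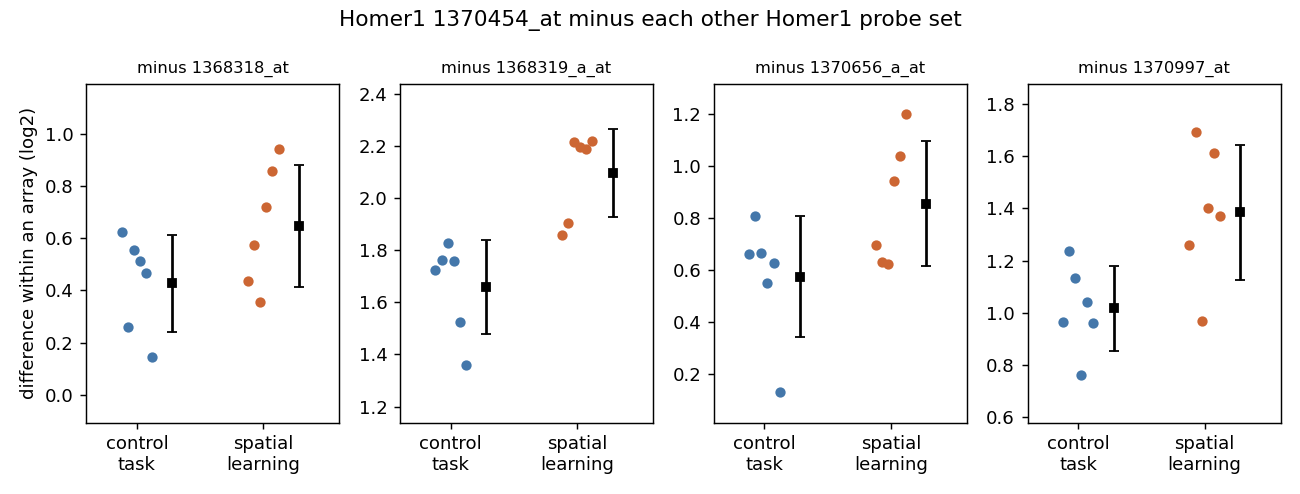
Level of Homer1 1370454_at minus that of each other Homer1 probe set within each array (log2), 1 circle per array, with mean and SD as squares and bars, n = 6 per group. The groups separate fully only against 1368319_a_at, where the controls end at 1.83 and the spatial learning arrays begin at 1.86.

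Across the 12 arrays, 2 pairs of Homer1 probe sets passed as correlated by Spearman's rho and none by Pearson's r. Probe set 1370656_a_at went with 1368318_at (Pearson r = 0.73, permutation p = 0.00671, adjusted over 10 pairs 0.0611; Spearman rho = 0.83, permutation p = 0.00152, adjusted 0.0076). It also went with 1368319_a_at (r = 0.70, permutation p = 0.0122, adjusted 0.0611; rho = 0.83, permutation p = 0.00147, adjusted 0.0076). Without the 2 arrays furthest from the median of the other probe set, these r were 0.69 and 0.78. Probe set 1370454_at correlated with the other 4 at r from 0.17 to 0.41, none past adjustment (adjusted permutation p from 0.463 to 0.683), and 1370997_at with the others at r from -0.14 to 0.24. Within groups, after centring each group on its mean, 1370454_at had r = 0.70 with 1368319_a_at.

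Homer1 is strongly expressed in CA1 pyramidal cells, so its probe sets were set beside the CA1 markers. The mean of 7 CA1 marker genes lay between 10.38 and 10.46 in 5 control arrays and spatial learning replicate 6, and between 10.61 and 10.80 in the other 6, so no r over all arrays is given. Over all 12 the relation of 1368318_at to this mean passed, the only one of 88 between tested members and marker or quality measures to do so (adjusted permutation p = 0.0167 for r and 0.0044 for rho), but these 2 clusters enter it. Within the spatial learning group, 1368318_at followed it with r = 0.97 (exact permutation p = 0.00694) and rho = 0.94 (exact permutation p = 0.0167, n = 6). Within the control task group r was 0.83 (exact permutation p = 0.0292) and rho 0.77 (exact permutation p = 0.103, n = 6). Without the 2 arrays furthest from the median marker mean, these r were 0.82 and 0.92. Adjusted over the 20 relations of the 5 Homer1 probe sets to this mean, the exact permutation p of r were 0.139 and 0.194, so neither passed. Among the 6 arrays of low marker mean r was 0.31 (exact permutation p = 0.537) and among the 6 of high marker mean 0.85 (exact permutation p = 0.0417). For 1370656_a_at, r was 0.88 among spatial learning arrays (exact permutation p = 0.0222) and 0.83 among controls (exact permutation p = 0.0597). For 1368319_a_at, r was 0.52 and 0.68 (exact permutation p = 0.289 and 0.0833), and for 1370997_at 0.04 and 0.11 (exact permutation p = 0.929 and 0.789). For 1370454_at, r was 0.24 among spatial learning arrays (exact permutation p = 0.665) and -0.04 among controls (exact permutation p = 0.990). None of these passed when adjusted over the 20 relations. Adding the CA1 marker mean as a covariate, a choice made with the data seen, gave 1370454_at a difference of 0.28 (limma adjusted p = 0.722), whose unadjusted p no longer lay under 0.05. Under the same covariate 1368319_a_at stood at -0.34 and 1370656_a_at at -0.26, both now with an unadjusted p under 0.05 (limma adjusted p = 0.635 and 0.585), and 1368318_at at -0.11 (limma adjusted p = 0.729). Most control arrays lay in the low cluster of this mean and most spatial learning arrays in the high one. What belongs to the group and what to the marker mean thus cannot be told apart in these fits.

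**Figure D5:**
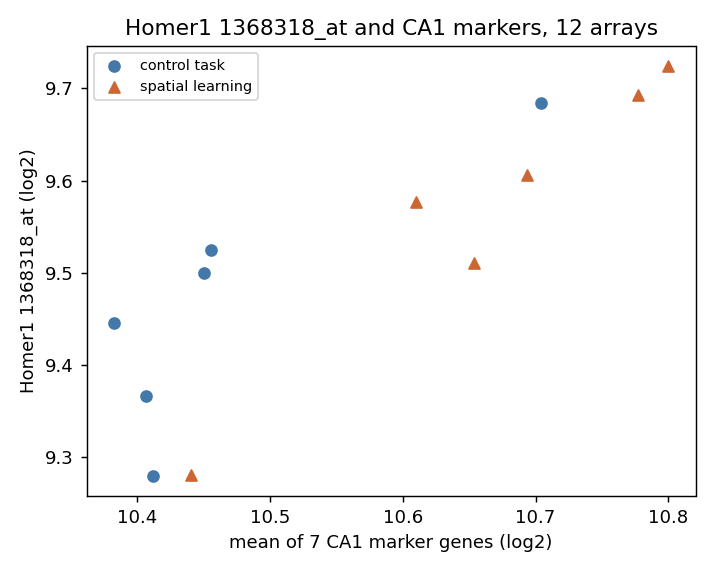
Level of Homer1 1368318_at (log2) against the mean of 7 CA1 marker genes (log2), 1 point per array, circles for the control task and triangles for spatial learning. The lowest spatial learning array, replicate 6, lies among the controls on both axes, and the highest control array, replicate 6, lies among the spatial learning arrays.

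Of 3 control transcripts that measure RNA quality, 1 differed between the groups past adjustment. For the hexokinase control, the 3' probe set exceeded the 5' one by 1.48 ± 0.08 among controls and by 1.65 ± 0.11 after spatial learning (log2, SD, n = 6 each, exact permutation p = 0.00433, adjusted over 3 control transcripts 0.013). The gap of beta-actin was 1.83 ± 0.09 and 1.93 ± 0.07 (adjusted exact permutation p = 0.117) and that of Gapdh 0.370 and 0.369 (adjusted exact permutation p = 0.998). The mean of the 3 gaps was 1.23 ± 0.07 and 1.32 ± 0.05 (SD, n = 6 each, exact permutation p = 0.0303, not adjusted). With the hexokinase gap as a covariate, added once the data had been seen, Homer1 1370454_at differed by 0.34 (limma adjusted p = 0.774). With the mean gap of the hexokinase, beta-actin and Gapdh controls it differed by 0.37 (limma adjusted p = 0.585). With choroid plexus and meningeal markers as a covariate it differed by 0.34, and without the 3 arrays highest in these by 0.35 (limma adjusted p = 0.343). Without those 3 arrays 1368318_at and 1370656_a_at each stood at 0.22, with unadjusted limma p of 0.00445 and 0.0498 (adjusted 0.210 and 0.430). Of the 8 tested members 3, all Homer1 probe sets, then had an unadjusted p under 0.05, and none passed. In the same fit 1115 of all 9615 tested probe sets had such a p. Where the probes lie along the Homer1 transcripts is not stated in the annotation, and the part of RNA quality in the gaps between probe sets was not tested.

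Among the receptors, Grm3, a group II receptor found on neurons and astrocytes, varied most from animal to animal. Control arrays read 9.57, 9.88, 9.28, 9.83, 9.51 and 9.87, and spatial learning arrays 8.998, 9.24, 10.25, 9.51, 10.07 and 9.47. The spatial learning group reached further on both sides, with 2 arrays below and 2 above all controls. The means were 9.66 ± 0.24 and 9.59 ± 0.48 (SD, n = 6 each), a difference of -0.07 (95% interval -0.49 to 0.35, limma adjusted p = 0.924). The SD pooled over both groups, 0.38, was larger than that of 98.0% of tested probe sets, so this interval allows ratios from 0.71 to 1.28. Grm3 had r = 0.31 with the astrocyte marker mean (permutation p = 0.329; rho = 0.32, permutation p = 0.310; r = 0.12 without the 2 arrays of furthest Grm3), 1 of 88 relations of members to marker and quality measures (adjusted permutation p = 0.827 and 0.649 for rho).

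The group III receptors Grm7 and Grm8, which restrain transmitter release at presynaptic terminals, showed no difference beyond their spread. Grm7 read 5.20, 5.12, 5.12, 5.02, 4.73 and 5.31 among controls and 5.05, 5.22, 4.91, 5.27, 5.001 and 5.24 after spatial learning. All 6 spatial learning values lay within the range of the controls, and the difference was 0.031 (SE 0.09, 95% interval -0.17 to 0.23, limma adjusted p = 0.925). Grm8 probe set 1371242_at read 8.23, 8.12, 8.16, 8.00, 8.48 and 8.51 against 8.20, 8.30, 8.33, 8.04, 8.34 and 8.36, again inside the control range. Its difference was 0.011 (SE 0.09, 95% interval -0.19 to 0.21, limma adjusted p = 0.976), which allows ratios from 0.88 to 1.16. The other Grm8 probe sets lay below the level filter and were not tested, 1371243_at, annotated to the same record as 1371242_at, between 3.22 and 3.61 and 1369391_at between 2.42 and 2.46. Grm8 is thus measured here through 1 of its 3 probe sets.

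The members below the level filter have values but no test. Grm5, a group I receptor that Homer binds and that CA1 pyramidal cells are known to express, read between 2.99 and 3.59 among controls and between 2.96 and 3.13 after spatial learning. Its 2 highest arrays were control task replicates 6 and 2, at 3.59 and 3.41. A reading this low says that the probe set gave little signal, and not that the transcript is missing. Homer2 and Homer3, whose products share the domain by which Homer1 binds its partners, stood at 2.71 ± 0.15 and 2.99 ± 0.04 in the control task group. In the spatial learning group they stood at 2.80 ± 0.28 and 3.09 ± 0.22 (SD, n = 6 each), with 1 array above the rest in each gene, replicate 3 at 3.36 for Homer2 and replicate 6 at 3.54 for Homer3. Grm2, a presynaptic group II receptor, lay between 2.36 and 2.97, its 3 highest arrays being spatial learning replicate 6 and control task replicates 4 and 6. Grm4, a group III receptor, lay between 2.54 and 2.61 in all arrays. Grm6, a group III receptor outside the member list, had 3 probe sets between 2.07 and 2.31.

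No partner of the Homer proteins passed the test. The list held Shank, Dlgap and Dlg scaffolds, inositol trisphosphate and ryanodine receptors, Trpc1 and Arc. Of its 12 tested genes, 0 passed higher and 0 lower, 9 lay above and 3 below 0, and the median was 0.07, where 53.7% of all tested probe sets lay above 0. Over all 18 tested probe sets of these genes the median was 0.015, with 12 above 0. The smallest unadjusted p belonged to Dlg3 (SAP102, a scaffold of NMDA receptors) at 0.13, Trpc1 (a cation channel that Homer binds) at 0.16, Shank3 (a master scaffold of the postsynaptic density) at 0.11 and Dlgap4 at -0.21. Their limma adjusted p lay between 0.423 and 0.429. Shank3 was at 10.85 ± 0.04 and 10.95 ± 0.09 (SD, n = 6 each), and 5 of the 6 arrays of the spatial learning group exceeded every control. The 2 other tested probe sets of Dlg3 stood at 0.088 and 0.0017.

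No gene downstream of group I receptors passed either. Of the 15 tested, 0 passed higher and 0 lower, 12 lay above and 3 below 0, and the median was 0.065. Over all 16 tested probe sets of these genes, 13 lay above and 3 below 0 (median 0.073). Itpka, a spine enzyme that phosphorylates inositol trisphosphate and is also in the CA1 marker list, stood at 10.86 ± 0.09 and 11.13 ± 0.18, a difference of 0.27 (SE 0.08, limma adjusted p = 0.376). Prkcb, a protein kinase C, differed by 0.12 and on its second probe set by 0.10, and Rheb, the small GTPase that activates mTOR, by 0.088. CA1 markers lay above 0 in 7 of 7 genes (0 passed), and their part in the counts of both lists was not tested.

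Genes downstream of group II and III receptors lay on both sides of 0. Of 22 tested, 0 passed, 10 lay above and 12 below 0, and the median was -0.052. Over all 30 tested probe sets of these genes, 13 lay above and 17 below 0 (median -0.052). The smallest unadjusted p belonged to Grip1 (a PDZ scaffold) at 0.21, Adcy5 (an adenylyl cyclase) at 0.20, Gnai2 (an inhibitory G protein subunit) at -0.12 and Kcnj6 (a G protein-gated potassium channel) at 0.10, with limma adjusted p from 0.409 to 0.437. Regulators of receptor signalling and glutamate uptake numbered 18 tested genes, of which 0 passed, 10 lay above and 8 below 0 (median 0.011). Over all 25 tested probe sets of these genes, 12 lay above and 13 below 0 (median -0.0045). Rgs4, which shortens Gq and Gi signals by speeding GTP hydrolysis, had the largest difference of the 18 genes at -0.47 (SE 0.12, limma adjusted p = 0.310). Its second probe set stood at -0.67. Slc1a1, the neuronal glutamate transporter, stood at 0.14 on its brighter probe set and -0.054 on the other, Rgs7 at 0.16 and Ppp3ca, a calcineurin subunit, at 0.07 on both of its probe sets.

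The transcripts whose levels went most closely with Homer1 1370454_at, after each group was centred on its own mean, were Cacna1a (a P/Q-type calcium channel subunit), Nop10 (a small nucleolar protein) and Tomm20 (a mitochondrial import receptor), picked as the highest of 8003 candidate probe sets. Their r over the 12 arrays were 0.93, 0.90 and 0.90, given as a description. Without centring they were 0.37, 0.92 and 0.91, Spearman rho was 0.18, 0.92 and 0.90, and without the 2 arrays furthest from the Homer1 median r was 0.22, 0.87 and 0.81. Cacna1a differed between the groups by -0.21, Nop10 by 0.067 and Tomm20 by 0.091, with limma adjusted p of 0.611, 0.552 and 0.522. The closest to Grm5, whose values were near background, were C13h1orf21, F11r and Tmem50b with centred r of 0.86, 0.85 and 0.85. Without centring, r was 0.85, 0.87 and 0.27 over the 12 arrays, and 0.23, -0.06 and 0.34 without the 2 arrays furthest from the Grm5 median, so that for C13h1orf21 and F11r the uncentred likeness rests on those arrays.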

How the data were processed

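The deposited table holds 1 log2 summary per probe set and array, made by the authors with GCRMA per the submitters' processing notes, with no version or settings given in the sources used here. GCRMA corrects background by probe sequence and normalizes between arrays. It therefore hides changes in total RNA and compresses differences of dim probe sets. The log2 scale was settled from the range, 0.134 to 14.8. Groups and replicate numbers came from the sample titles. No batch labels are given in the sources used here.

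Gene names came from the platform annotation that accompanies the table, and 1 further probe set that lists Homer1 among several genes was not used. Of 15923 probe sets, 57 are controls. The 9610 with a mean of at least 4 entered limma 3.58.1 under R 4.3.3, with group as sole term and a variance trend in eBayes. The 2-sided p were adjusted by Benjamini-Hochberg over the 9610 and called at 0.05, and SEs are moderated. The brightest probe set stood for a listed gene. Single values were also tested by exact permutation over 924 splits, and correlations over 12 arrays by 100000 permutations. The fit was also run on simulated data, with probe sets drawn independently and shifts larger than the difference of any member. That run does not bear on differences of the size seen here. Probe sequences and genome coordinates were not used here.

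The members and lists were chosen with earlier results of these data known. Named genes were all members, up to 4 genes of each list by smallest unadjusted p, and the 3 genes most like Homer1 and Grm5. Alternatives were other filters, scalings, variance models, covariates, a replicate block and left-out arrays.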

Additional observations from a re-analysis of the deposited data

Results flagged for a closer look

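In 7 of the 30 group-by-probe-set combinations, 1 array lay further from its neighbour than Dixon's 95% criterion for 6 values allows (a gap over 0.625 of the range). For normally distributed values chance flags about 1 in 20. The share over all probe sets of the array was not counted, so whether 7 of 30 is unusual is not known. For Homer1 1370997_at these were control task replicate 2 at 8.47, with the next array at 8.87, and spatial learning replicate 2 at 8.49, with the next at 8.85. The other 5 lay below the level filter. Homer2 was high in control task replicate 6, at 3.02, and in spatial learning replicate 3, at 3.36. Homer3 was high in spatial learning replicate 6, at 3.54, as was Grm2 in the same array, at 2.97. Grm5 was low in spatial learning replicate 2, at 2.96. Control task replicate 6 and spatial learning replicate 6 were also the highest in meningeal markers (list means 6.40 and 6.16), and their part in the Homer2, Homer3 and Grm2 readings was not tested.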

How the results depend on the processing

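The 0 calls among the Homer and Grm probe sets held in all 26 other limma fits and under exact permutation, and Homer1 1370454_at stayed above 0 in each, at 0.24 to 0.39, with adjusted p from 0.259 to 0.774. Its unadjusted p was under 0.05 in 26 of these 27, the exception being the CA1 marker covariate. Other members had such a p in 3 settings: Homer1 1368318_at at 0.22 and 1370656_a_at at 0.22 without the 3 arrays highest in choroid plexus or meningeal transcripts, 1368318_at at 0.16 without spatial learning replicate 6, and 1368319_a_at at -0.34 and 1370656_a_at at -0.26 with the CA1 marker covariate, at limma adjusted p from 0.210 to 0.635. In these 3 settings, in the same order, 1115 of 9615, 1024 of 9614 and 686 of 9610 tested probe sets had an unadjusted p under 0.05. Over the whole array, 3 probe sets passed with array quality weights and 5 without the 3 arrays highest in choroid plexus or meningeal transcripts. Without 1 array each, 0 to 3 passed (3 without control task replicate 6). Over all tested probe sets, same-numbered arrays of the 2 groups did not deviate together (correlations from -0.17 to 0.082), so the numbers are not taken as pairs. Single readings could differ from this. Homer1 1370997_at was lowest in replicate 2 of both groups, and its SE went from 0.10 to 0.047 with a replicate block (limma adjusted p = 0.788). The meningeal mean was highest in replicate 6 of both groups. The replicate block left 0 calls and gave 1370454_at 0.32 (limma adjusted p = 0.575). Small differences changed sign, and the cause was not tested. With the mean 3' to 5' gap as a covariate Homer1 1370997_at was 0.10, Grm7 -0.12 and Grm8 -0.0073, and with the hexokinase gap alone 0.10, -0.19 and -0.055, with Grm3 at 0.021. With CA3 and dentate markers as a covariate Homer1 1368318_at was -0.0031, 1370656_a_at -0.042, 1370997_at 0.018 and Grm8 -0.093. With CA1 markers Homer1 1368318_at was -0.11, 1370656_a_at -0.26 and Grm8 -0.087. Without 1 array each, Homer1 1368318_at ranged from 0.061 to 0.16, 1368319_a_at from -0.18 to -0.025, 1370656_a_at from -0.046 to 0.11, 1370997_at from -0.13 to 0.019, Grm3 from -0.20 to 0.052, Grm7 from -0.040 to 0.078 and Grm8 from -0.039 to 0.064. The number of Homer1 pairs past the threshold ranged from 0 to 4 without 1 array each and was 0 without the 3 arrays, where a lone pair could not have passed. The gap of 1370656_a_at over 1370997_at then ranged from -0.018 to 0.17 without 1 array each, and that of 1368319_a_at over 1370997_at from -0.17 to 0.039, and 0.0076 without the 3 arrays. The covariates of CA1 markers and hexokinase, the exact permutation counts and the pairs without 3 arrays were added after seeing the data. Dim members, 7 of 15, cannot be judged at their signal.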
